A study of Mus musculus with 2 samples.

Results

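The 10 genes described here make up the MHC class II antigen presentation machinery of the mouse: H2-Aa, H2-Ab1, H2-Eb1, Cd74, H2-DMa, H2-DMb1, H2-DMb2, H2-Oa, H2-Ob and Ciita. They were chosen by symbol, and all 10 were found among the 31053 features of the deposited table. The study profiled microglia, the macrophages that live in the brain tissue, by droplet single-cell RNA sequencing, in which each captured transcript carries a unique molecular identifier (UMI) and is counted a single time. There was 1 library of wild-type (WT) cells and 1 of cells titled IRF8KO, which lack the transcription factor IRF8 according to the title. Both libraries came from untreated female C57BL/6 mice aged 3 months, and each pooled sorted cells of 3 animals. The genotype entry of the second sample reads WT, so it is called the library labelled IRF8KO, or IRF8KO cells for short. The deletion and its cell range are not described in the labels.

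Class II molecules are pairs of an alpha and a beta chain that carry peptides from engulfed proteins to the cell surface, where helper T cells read them. H2-Aa and H2-Ab1 encode the 2 chains of I-A, and H2-Eb1 the beta chain of I-E. C57BL/6 mice lack a functional I-E alpha chain, so an H2-Eb1 transcript there is not matched by I-E at the surface. CD74, the invariant chain, guards the empty groove on the way to the endosome. H2-DM, a pair of H2-DMa with H2-DMb1 or H2-DMb2, then exchanges the CD74 remnant for peptide, and H2-O, a pair of H2-Oa and H2-Ob, restrains H2-DM. CIITA is the coactivator that switches the class II genes on together. Resting microglia are known for little surface class II, while dendritic cells, B cells and border macrophages hold more.

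CIITA acts through a promoter module whose X box is bound by the RFX complex and whose Y box is bound by NF-Y, and the stretches that hold both cores are shown because the genes they belong to behaved in opposite ways below. RefSeq promoter windows of GRCm38.p6, from 250 bases before to 50 after a start, were found for 7 of the 10 genes in 8 windows: H2-Aa, H2-Eb1, H2-DMa, H2-DMb1, H2-DMb2, H2-Oa and H2-Ob. The X core was searched as GCAAC and the Y core as ATTGG on both strands, and a pair needed both on the same strand with starts 20 to 35 bases apart. H2-Aa, H2-Eb1, H2-Oa and H2-Ob held such a pair, against 274 of 32851 windows of the whole table (0.834%). Capitals mark the 2 cores in each stretch, which is written 5′ to 3′ along the gene: chr17:34287857-34287914 on the minus strand for H2-Aa, chr17:34305766-34305822 for H2-Eb1, chr17:34092293-34092350 for H2-Oa and chr17:34238808-34238862 for H2-Ob, these 3 on the plus strand.
H2-Aa: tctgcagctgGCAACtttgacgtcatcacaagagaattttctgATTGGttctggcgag
H2-Eb1: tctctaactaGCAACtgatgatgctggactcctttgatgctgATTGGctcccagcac
H2-Oa: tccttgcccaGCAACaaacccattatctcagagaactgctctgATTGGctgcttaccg
H2-Ob: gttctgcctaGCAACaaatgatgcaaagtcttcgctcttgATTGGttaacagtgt
The X core began 76 to 91 bases before the start, and the distance between the cores' starts was 33 bases in H2-Aa and H2-Oa, 32 in H2-Eb1 and 30 in H2-Ob. Single cores are common: 35.2% of all windows held the X core and 37.4% the Y core. No window of these genes held a match to the ETS-IRF composite element (2.72% of all windows) or to the interferon-stimulated response element (3.44%). These are matches of letters and no measure of binding.

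A barcode entered as a cell from 1000 UMIs and 500 genes upward, with a mitochondrial share no higher than 10% and less than 2% of UMIs in the neutrophil genes Camp, Ngp, S100a8, S100a9, Lcn2 and Ltf. This left 3304 of 3504 WT barcodes with 18543061 UMIs and 5007 of 5303 IRF8KO barcodes with 18980263 UMIs. The median cell held 3204.5 and 2933 UMIs, with ranges of 1000 to 93350 and 1003 to 40063. The neutrophil limit removed 98 IRF8KO cells and no WT cell, and the cells next to it stood at 0.232% and 2.36%. All 9 microglia markers were detected in both libraries. In WT they stood at 511 to 9656 CPM (UMIs of a gene per 1000000 UMIs of all genes). In IRF8KO cells they stood at 2.85 (Sall1) to 4548 CPM. The border macrophage markers Ms4a7, Pf4, Mrc1 and Clec12a stood at 649, 1462, 503 and 210 CPM in IRF8KO cells. In WT they stood at 0, 0.485, 11.4 and 0 CPM. Of the same list, Cd163, Cbr2 and F13a1 stood at 6.11 to 12.9 CPM in IRF8KO cells and 0 to 0.431 CPM in WT. Lyve1 was at 0.105 and 0 CPM, and Folr2 went the other way, with 0.211 CPM in IRF8KO cells and 1.73 CPM in WT. Irf8 itself stood at 794 and 669 CPM, which does not check the label, because 3′ tags can lie outside a deleted part. The libraries shared 5 cell barcodes, and leaving those cells out moved no ratio below beyond its interval. With 1 library per group no difference has a replicate check and no test exists; intervals are 95% and cover counting error alone, and cells are not replicates.

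The class II genes did not differ between the libraries as a unit. In 1 library or both, 8 members reached 10 CPM, of which 4 were at least 2-fold higher in the library labelled IRF8KO and 3 at least 2-fold lower, with a median log2 ratio of 0.39 beside -0.28 over all 8859 genes of that level. Among all these genes, 5.61% were at least 2-fold higher and 9.28% at least 2-fold lower. The 4 higher members were H2-Aa, H2-Ab1, H2-Eb1 and Cd74, called the presenting group below, and the 3 lower ones H2-DMa, H2-DMb1 and H2-Ob. H2-Oa lay between, and H2-DMb2 and Ciita stayed under 10 CPM. All 10 genes together took 0.0492% of UMIs in WT and 0.0293% in IRF8KO cells. TMM scaling, which moved the median of all genes by 0.25, left every member on its side of 0.

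**Figure D1:**
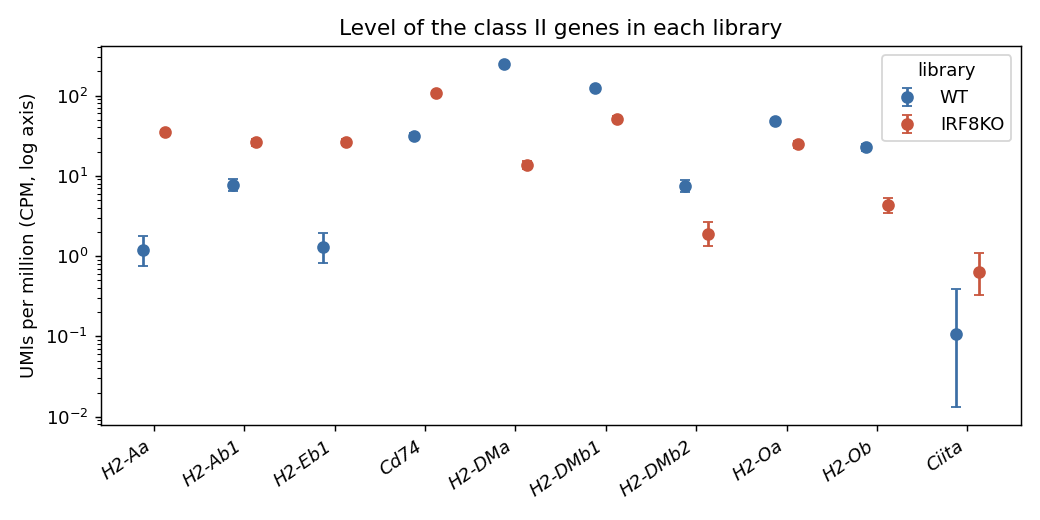
Level of each gene in the WT library (blue) and the library labelled IRF8KO (red) in CPM on a log axis; points are the sum over kept cells of 1 library and bars its 95% Poisson interval. The presenting genes on the left were higher in the library labelled IRF8KO (Cd74 at 108.5 against 31.4 CPM), and H2-DM and H2-O genes were higher in WT (H2-DMa at 245.9 against 13.7 CPM).

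H2-DMa, the alpha chain of the peptide exchanger, stood furthest apart among the genes that were lower. WT cells held 4559 UMIs of it, or 245.9 CPM (239 to 253), and IRF8KO cells 260, or 13.7 CPM (12.1 to 15.5). This is 17.9-fold lower, a log2 ratio of -4.17 (-4.35 to -3.99). H2-DMb1, its usual partner, had 2334 and 981 UMIs, 125.9 CPM (121 to 131) and 51.7 CPM (48.5 to 55.0). Its log2 ratio was -1.28 (-1.39 to -1.18), so the beta chain was 2.44-fold lower where the alpha chain was 17.9-fold lower. H2-DMb2, the neighbouring beta chain gene, had 138 and 36 UMIs and a ratio of -1.97 (-2.54 to -1.43). H2-DMb1 and H2-DMb2 are close copies, and how shared reads were assigned is not given in the sources used here, so the division of UMIs between them is uncertain.

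The H2-O genes were also lower, to unequal degrees. H2-Ob, the beta chain of the H2-DM inhibitor, went from 418 UMIs in WT to 82 in the other library, 22.5 CPM (20.4 to 24.8) against 4.32 CPM (3.44 to 5.36), a log2 ratio of -2.38 (-2.74 to -2.04). H2-Oa, the alpha chain, had 898 and 466 UMIs, 48.4 CPM (45.3 to 51.7) and 24.6 CPM (22.4 to 26.9), a ratio of -0.98 (-1.14 to -0.82). Relative to the median of all genes, H2-Oa thus stood at -0.70 and H2-Ob at -2.10.

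The presenting group was higher in sum. WT cells held 22 UMIs of H2-Aa and IRF8KO cells 662, 1.19 CPM (0.744 to 1.80) against 34.9 CPM (32.3 to 37.6), a log2 ratio of 4.88 (4.27 to 5.56). H2-Eb1 had 24 and 507 UMIs and a ratio of 4.37 (3.78 to 5.02). H2-Ab1, the partner of H2-Aa, had 142 and 495 UMIs, 7.66 and 26.1 CPM, a ratio of 1.77 (1.496 to 2.05). Cd74 had 583 and 2059 UMIs, 31.4 CPM (28.9 to 34.1) and 108.5 CPM (104 to 113), a ratio of 1.79 (1.65 to 1.92). Ciita, the coactivator, was near the limit of detection with 2 UMIs in WT and 12 in IRF8KO cells, a ratio of 2.55 whose interval ran from 0.38 to 5.75.

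These genes are on mouse chromosome 17 in GRCm38 (GENCODE M21), apart from Cd74 on chromosome 18 and Ciita on chromosome 16. H2-Oa (34092340 to 34095234), H2-DMa (34119541 to 34139101), H2-DMb2 (34143307 to 34151555), H2-DMb1 (34153072 to 34160230), H2-Ob (34238903 to 34254414), H2-Ab1 (34257689 to 34269419) and H2-Eb1 (34305867 to 34316674) run on the plus strand, and H2-Aa (34282744 to 34287823) on the minus strand. Higher and lower genes therefore lie side by side: H2-Ob, with a ratio of -2.38, ends shortly before H2-Ab1, with 1.77. H2-Oa lies wholly inside the antisense gene BC051537 (37 WT and 40 IRF8KO UMIs), H2-DMa shares 3094 bases with the antisense gene Brd2 (3062 and 2293 UMIs), and Ciita shares 25888 with Dexi. Whether counting used strand is not given in the sources used here, so reads in these overlaps cannot be told apart.

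The H2-DM genes were spread over WT cells. Of 3304 WT cells, 1909 (57.8%) had an H2-DMa UMI: 947 held 1, 490 held 2 and 472 held 3 or more, with at most 44 in a cell. H2-DMb1 had a UMI in 1323 cells (40.0%) and at most 20 in a cell. Had the same UMIs been spread over cells in proportion to depth, 1972 cells would hold H2-DMa and 1333 H2-DMb1, by formula, so observed cells were 0.968 and 0.993 of an even spread. For H2-DMb2, H2-Oa and H2-Ob this quotient was 0.983, 0.990 and 0.975. The 50 WT cells that held most H2-DMa had 17.0% of its UMIs, and the 50 deepest cells had 14.5% of all UMIs.

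The H2-DM level in WT was followed over the depth of the cells. In 4 equal groups of WT cells ordered by total UMIs, the summed H2-DM level was 410 CPM (381 to 442), 367 (343 to 392), 372 (351 to 394) and 379 (368 to 391) from the shallowest to the deepest. H2-DMa ran from 241 to 257 CPM, H2-DMb1 from 118 to 148, H2-Oa from 43.1 to 57.3 and H2-Ob from 22.1 to 23.6 CPM over the same groups, and neither H2-DMb1 nor H2-Oa had an order that followed depth throughout. Detection of these genes went together weakly if at all in WT cells. After thinning each cell to 2000 UMIs, H2-DMb1 had a UMI in 22.7% (20.2 to 25.3) of 1094 WT cells with H2-DMa and in 20.9% (19.1 to 22.8) of 1925 without. H2-DMa had one in 36.3% of 146 WT cells with a Cd74 UMI and in 36.2% of 2873 without. H2-Oa had one in 7.58% (3.69 to 13.5) of 132 WT cells with H2-Ob and in 9.63% (8.58 to 10.8) of those without. H2-Ab1 had one in 3.42% (1.12 to 7.81) of the 146 cells with Cd74 and in 1.22% (0.85 to 1.69) of those without, with intervals that overlap.

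Thinning also put the libraries on the same depth, with 3019 WT and 4509 IRF8KO cells (285 and 498 shallower cells left out). H2-DMa then had a UMI in 36.2% (34.5 to 38.0) of WT and 2.15% (1.75 to 2.62) of IRF8KO cells, against 57.8% and 4.05% without thinning. H2-DMb1 had one in 21.6% (20.1 to 23.1) and 9.23% (8.40 to 10.1), H2-Oa in 9.54% (8.51 to 10.6) and 4.61% (4.02 to 5.27), and H2-Ob in 4.37% (3.67 to 5.16) and 1.06% (0.786 to 1.41). Free RNA can put UMIs into cells that do not express a gene. In the 97 thinned IRF8KO cells above the neutrophil limit (median depth of all 98 before thinning 7057.5 UMIs), H2-DMb1 had a UMI in 1 (1.031%, 0.0261 to 5.61) and H2-DMa in 0, which allows up to 3.09% (3 counts of the total). The H2-DMa and H2-Ob shares in IRF8KO cells lie under that limit, which holds for both, and could not be told from background at this depth. H2-Oa, with 1 of 97 neutrophil-like cells, lies inside that cell class's interval as well, while H2-DMb1 lies above it. WT held no such cells.

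The presenting group was held by few cells, most of all in the library labelled IRF8KO. There, 50 of 5007 cells held 100% of H2-Eb1 UMIs, 99.5% of H2-Aa, 97.0% of H2-Ab1 and 78.7% of Cd74, where the median gene with at least 10 CPM had 16.3% in its 50 leading cells and the 50 deepest cells had 6.95% of all UMIs. A share of 50% or more in 50 cells was met by these 4 of the 7 members with at least 10 CPM, against 0.306% of 8170 genes. Over 50% of H2-Aa and of H2-Eb1 UMIs lay in 7 cells each, of H2-Ab1 in 8 and of Cd74 in 11. H2-Aa had a UMI in 53 cells, where an even spread would give 597 (0.0888 of it), and the cell with most held 75. Cd74 reached 427 cells, 0.274 of an even spread, and up to 152 UMIs in a cell. By contrast, H2-DMb1 had a UMI in 820 IRF8KO cells, 0.969 of an even spread, with 14.5% of its UMIs in 50 cells. H2-DMa lay between, with 41.2% in 50 cells and 0.815 of an even spread, on 260 UMIs. The 50-cell share rises where UMIs are few: H2-Ob, with 82 UMIs, had 63.4% in 50 cells at 0.989 of an even spread.

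In WT each presenting gene came nearer to an even spread over cells than in the other library, but on fewer UMIs. WT totals ran from 22 (H2-Aa) to 583 (Cd74), and IRF8KO totals from 495 (H2-Ab1) to 2059 (Cd74). The quotient moves toward 1 where UMIs are few, so the libraries were not compared at equal counts. The 50 leading WT cells held 46.0% of Cd74 UMIs, 0.668 of an even spread in cells, and of the 5 members with at least 10 CPM 0 had 50% of their UMIs in 50 cells, where 0.059% of 8468 WT genes did. H2-Ab1 had 142 UMIs in 108 WT cells, 94 of them with 1, 0.807 of an even spread and 59.1% of its UMIs in 50 cells. For scale, WT H2-DMb2, with 138 UMIs, had 43.5% in 50 cells at 0.983 of an even spread. H2-Aa had its 22 UMIs in 10 cells (0.459 of an even spread) and H2-Eb1 its 24 in 12 (0.505), at most 6 in a cell, so 50 cells held 100% of both. After thinning, a presenting gene had a UMI in 6.10% (5.27 to 7.01) of WT cells and 6.06% (5.38 to 6.79) of IRF8KO cells, although the summed level was 41.6 CPM and 196 CPM (a log2 ratio of 2.24, 2.13 to 2.35). That share is mostly Cd74, with 4.84% (4.10 to 5.66) and 5.34% (4.71 to 6.04) of cells. H2-Aa had a UMI in 0.166% (0.0538 to 0.386) of WT and 0.887% (0.634 to 1.21) of IRF8KO cells and H2-Eb1 in 0.166% (0.0538 to 0.386) and 0.599% (0.395 to 0.87), so their intervals were apart. Those of H2-Ab1, 1.32% (0.948 to 1.80) and 0.976% (0.71 to 1.31), overlapped. Each presenting gene had a UMI in 1 of the 97 thinned neutrophil-like cells (1.031%, 0.0261 to 5.61), the same cell for all of them. Before thinning, that cell held 137 of the 151 presenting UMIs of the neutrophil-like cells. Whether it held 2 cells was not tested. The IRF8KO shares of H2-Aa, H2-Ab1, H2-Eb1 and Cd74 all lie inside that interval. As the interval rests on this 1 strongly positive cell, it is no measure of free RNA. It therefore cannot decide whether these shares differ from background.

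**Figure D2:**
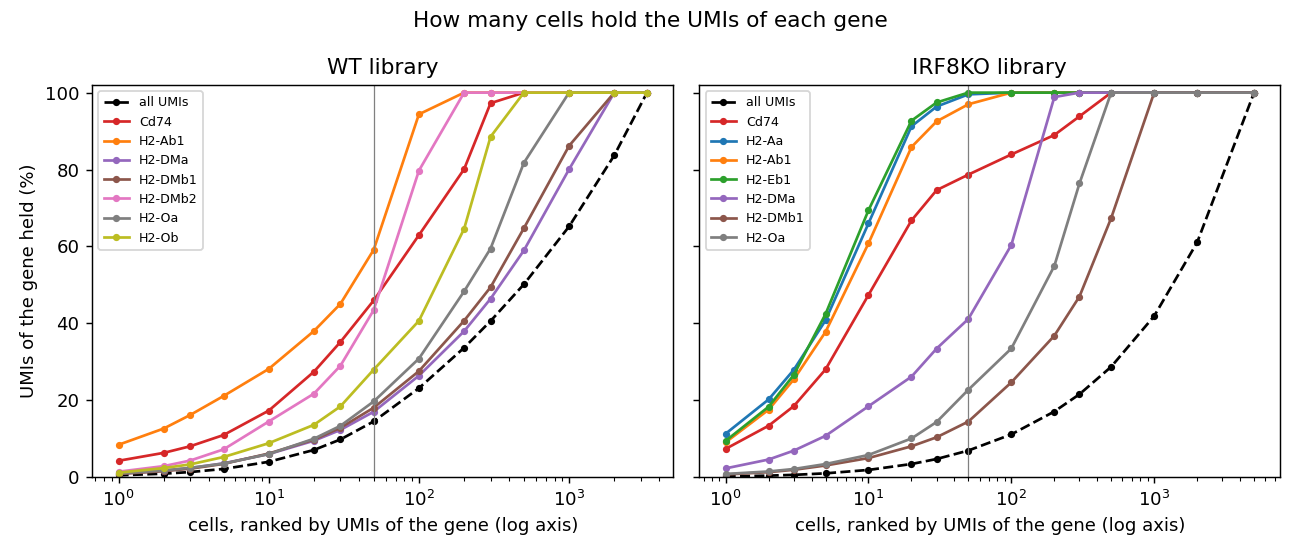
Share of each gene's UMIs held by its leading cells, for genes with at least 100 UMIs, in WT (left) and the library labelled IRF8KO (right); the x axis ranks cells on a log scale, lines join the marked ranks, the dashed line ranks cells by all UMIs, and the grey line marks 50 cells. H2-DMa and H2-DMb1 run close to the dashed line in WT (17.0% and 18.1% at 50 cells), and H2-Aa, H2-Ab1, H2-Eb1 and Cd74 rise steeply in the right panel (99.5%, 97.0%, 100% and 78.7%).

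Cells with 10 or more UMIs of the presenting group together, called holder cells, were set apart to see what carried these transcripts. As they were picked by the genes themselves, all that follows on those genes in them is a description. There were 9 holders in WT, 0.272% of cells (0.125 to 0.516), and 31 in the library labelled IRF8KO, 0.619% (0.421 to 0.878). The gap between these shares rests on the limit: with 5 UMIs or more there were 27 WT cells, 0.817% (0.539 to 1.19), and 44 IRF8KO cells, 0.879% (0.639 to 1.18), and with 20 or more 3, 0.0908% (0.0187 to 0.265), and 27, 0.539% (0.356 to 0.784). They held 10 to 43 presenting UMIs in WT (median 14) and 10 to 273 in IRF8KO cells (median 71). Just outside, 3 cells of each library held 8 or 9, and just inside, 4 WT and 3 IRF8KO cells held 10 to 12. WT holders carried 20.4% of the group's UMIs in that library, and IRF8KO holders 83.7%.

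Without holders, the presenting group stood at 33.3 CPM for WT against 32.7 CPM for IRF8KO cells, which puts the log2 ratio at -0.03 (-0.19 to 0.14) in place of 2.24. The holder rule itself leaves cells with at most 9 presenting UMIs, so for these genes the shift is partly set by the rule and is a description. Cd74 was at 26.7 and 27.9 CPM, a ratio of 0.07 (-0.11 to 0.25). H2-Ab1 turned to the WT side: 110 WT and 40 IRF8KO UMIs were left, 5.96 and 2.16 CPM, a ratio of -1.47 (-2.03 to -0.93). H2-Aa kept 3 and 29 UMIs (3.26, 1.57 to 5.62) and H2-Eb1 9 and 19 (1.07, -0.14 to 2.40). The H2-DM group moved little, from -2.49 (-2.58 to -2.41) to -2.61 (-2.70 to -2.52), and H2-DMa went from -4.17 to -4.54, since holders carried part of its few IRF8KO UMIs.

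**Figure D3:**
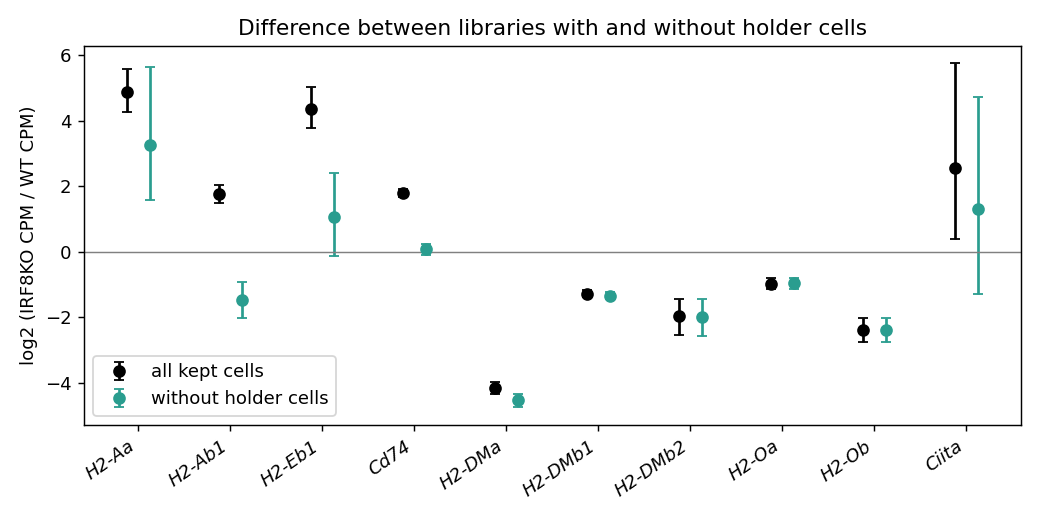
Log2 ratio of CPM in the library labelled IRF8KO over WT for each gene, over all kept cells (black) and without holder cells (green); bars are 95% exact intervals of the counts, and the line marks no difference. Without holders Cd74 sits at 0.07 and H2-Ab1 at -1.47, while H2-DMb1 goes from -1.28 to -1.34 and H2-Ob stays at -2.38. Holders were picked by the presenting genes themselves.

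In the library labelled IRF8KO the 4 presenting genes came together, and H2-DMa came with them. A UMI of all 4 was present in 28 of 31 holders and in 1 of the other IRF8KO cells. With holders chosen by the other 3 genes each time, the chosen 29 cells held 95.2% of H2-Aa, and again 29 held 91.1% of H2-Ab1 and 95.9% of H2-Eb1, and 22 chosen without Cd74 held 68.7% of Cd74. H2-DMa stood at 150 CPM (116 to 192) in holders and 10.6 CPM (9.14 to 12.2) in other IRF8KO cells, 14.2-fold (10.6 to 18.9), with a UMI in 23 of 31 holders. The level in holders was below the 246 CPM of WT cells outside holders. H2-DMb1 was at 141 and 49.6 CPM, 2.84-fold (2.15 to 3.69), and Ciita at 16.4 and 0.269 CPM, with 7 of its 12 UMIs in holders. H2-DMb2 (1.24-fold, 0.0306 to 7.40), H2-Oa (0.761-fold, 0.326 to 1.51) and H2-Ob (1.09-fold, 0.13 to 4.06) had intervals that include equal levels. H2-Oa and H2-Ob, whose promoters hold the same core pair as H2-Aa and H2-Eb1, had 8 and 2 UMIs in holders. The windows of H2-DMa and H2-DMb1 held no such pair, and H2-Ab1 and Cd74 had no window. What part the pair has in these levels was not tested.

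WT holders were weaker, and their summed counts showed no such H2-DM difference. The 9 cells ranged from 2349 to 53163 UMIs (median 4579), so the deepest cell weighs most in these sums. H2-DMb1 had its 14 holder UMIs in 3 of the 9 cells. H2-Aa was at 202 CPM, H2-Ab1 at 341, H2-Eb1 at 160 and Cd74 at 969 CPM in the 9 cells, and 4 of 9 had a UMI of all 4 genes. H2-DMa stood at 277 CPM (181 to 406) in WT holders and 246 CPM (239 to 253) in other WT cells, 1.13-fold (0.735 to 1.65), and H2-DMb1 at 149 and 126 CPM, 1.19-fold (0.647 to 1.99). Ciita had 0 UMIs in WT holders.

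**Figure D4:**
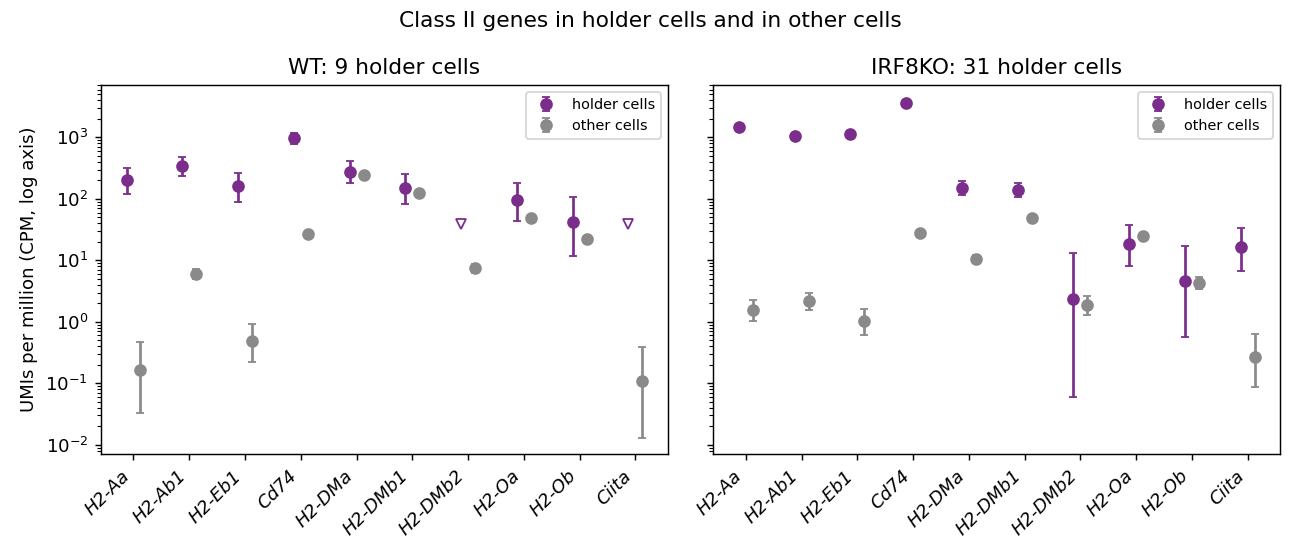
Level of each gene in holder cells (purple) and other cells (grey) of each library in CPM on a log axis, with 95% Poisson intervals of the summed counts; open triangles are upper limits where no UMI was found. H2-DMa is about level between holders and other cells in WT (277 and 246 CPM) and apart in the library labelled IRF8KO (150 and 10.6 CPM).

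Holders of the library labelled IRF8KO had a lower median share of microglia markers than other cells of that library. Microglia markers took a median of 0.985% of UMIs in holders (0.164 to 1.53) and 1.33% in other IRF8KO cells (5th to 95th percentile 0.723 to 2.21), with 8 of 9 detected and Sall1 at 0 in holders. Of the 31 holders, 7 lay under that 5th percentile and 0 above the 75th (1.66%). In summed UMIs the list took 1.22% in holders and 1.35% in other cells. Cx3cr1 alone of the list was higher in holders (2990 and 2490 CPM). Border macrophage markers took 0.25% (0.115 to 0.912) and 0.236% (0.0375 to 0.625), with 7 of 9 detected, Lyve1 and Folr2 at 0, and 1 of 31 holders above the 95th percentile. In this list, Cd163, a scavenger receptor, was at 91.5 CPM in holders and 7.22 CPM elsewhere, and F13a1, coagulation factor XIII, at 106 and 10.7 CPM, while Ms4a7 (622 and 649 CPM) and Pf4 (1204 and 1468 CPM) were close. Among 14 dendritic cell markers, 8 were detected in holders, Xcr1, Clec9a, Ccr7, Itgae, Dpp4 and Klrd1 were at 0, Flt3 and Zbtb46 had 2 UMIs each, and the list took 0.0294% (0 to 0.134) against 0.0198% (0 to 0.101), with 2 of 31 holders above the 95th percentile of other cells. Other members of the list were higher in holders: Naaa at 21.1 against 1.24 CPM (9 UMIs in 8 holders), Batf3 at 14.1 against 1.35 CPM (6 UMIs in 6) and Clec10a at 7.04 against 0.377 CPM (3 UMIs in 3). Wdfy4 (56.3 and 41.1 CPM) and Fscn1 (174 and 222 CPM) were nearer to each other. Cd209a had 5 UMIs in 2 holders and 0 in other IRF8KO cells. Of the B cell markers, Cd79a, Ms4a1, Pax5, Ebf1, Ly6d and Igkc were at 0 in holders, while Ighm, the mu heavy chain, had 25 UMIs in 16 of 31 holders (58.7 against 21.1 CPM elsewhere) and Cd79b had 4 (9.39 against 4.10 CPM). All 7 T and NK cell markers and all 4 red blood cell markers were at 0, and 4 of 8 neutrophil and 2 of 4 endothelial markers were detected, at a median of 0%. The markers named at 0 in holders stood at 2.91 CPM (Sall1, Klrd1) or less in other IRF8KO cells, so their zeros do not show a lower level in holders. What part the listed markers have in the holders' class II level was not tested.

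A monocyte marker stood out in IRF8KO holders. Ccr2, the chemokine receptor that brings monocytes into tissue, had 183 UMIs in 26 of 31 holders and 114 in 46 other IRF8KO cells, 430 and 6.14 CPM, or 69.9-fold (55.0 to 89.1). The monocyte markers Ly6c2, Plac8, Chil3 and Vcan were at 0 in holders. In other IRF8KO cells they stood at 1.67 CPM (Chil3) or less, so these zeros do not show a lower level in holders. By the naming rule, the 8 genes with the largest fold in IRF8KO holders were Cxcl9, Slamf7, Mgl2, Ahnak, Ccr2, S100a6, Gadd45b and Lgals3. Cxcl9, a chemokine induced by interferon gamma, had 251 UMIs, but in 2 holders, with 1 UMI elsewhere. Mgl2, a C-type lectin of macrophages and dendritic cells, had 31 UMIs in 14 holders against 14 elsewhere (96.4-fold), Ahnak 53 UMIs in 23 holders (74.5-fold) and the calcium-binding S100a6 32 in 13 (43.6-fold). Gadd45b, like Cxcl9, was in 2 holders, so it describes those cells and not the holders at large.

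In WT holders, microglia markers took 2.6% of UMIs (1.36 to 3.58) against 2.75% (1.93 to 3.72), 2 of 9 holders under the 5th percentile and all 9 markers detected, with P2ry12 at 3994 and 3700 CPM and Sall1 at 469 and 511 CPM. Of 9 border macrophage markers, Mrc1 alone was detected, with 3 UMIs, and the monocyte markers Ccr2, Ly6c2, Plac8, Chil3 and Vcan were at 0. The dendritic cell list took 0.0436% (0 to 0.131) against 0.0583% (0 to 0.148), and 9 of its 14 genes, Flt3, Zbtb46, Xcr1, Clec9a, Ccr7, Cd209a, Dpp4, Klrd1 and Clec10a, were at 0. All markers at 0 in these lists stood at 5.58 CPM (Ccr2) or less in other WT cells, so zeros in 9 cells do not show a lower level in holders. The highest folds belonged to the chemokines Cxcl9, Ccl5, Ccl2, Ccl12 and Ccl4, but Cxcl9, Ccl5, Ccl2 and Ccl4 each had their holder UMIs in 1 of 9 cells and Ccl12 in 3. The next by the rule, Trip11, Nras and Arhgef40, were at 2.15 to 2.29-fold.

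**Figure D5:**
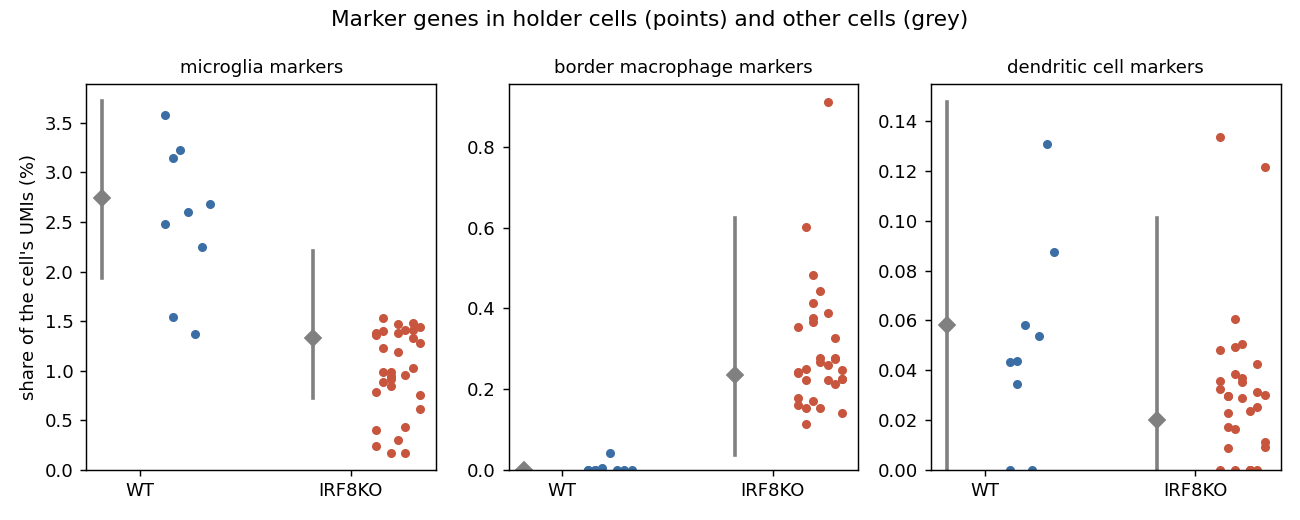
Share of each cell's UMIs in microglia, border macrophage and dendritic cell markers, in percent; points are holder cells of WT (blue) and the library labelled IRF8KO (red), the grey bar is the 5th to 95th percentile and the diamond the median of other cells. Microglia markers have a median of 2.6% in WT and 0.985% in IRF8KO holders, of which 7 of 31 lie under the grey bar, and border macrophage markers 0% and 0.25%.

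Depth went with holding in the library labelled IRF8KO, in part by the rule itself. The limit of 10 presenting UMIs is a fixed count, which deeper cells reach more easily. With a limit of 0.2% of the UMIs of the cell instead, there were 28 IRF8KO and 7 WT holders. Its holders had a median of 9427 UMIs (2074 to 38636) against 2928.5 in other cells, and 17 of 31 lay above the 95th percentile of the library. Of the 31, 27 fell in the deepest of 4 groups of cells by UMIs, where the presenting group stood at 353 CPM (341 to 365), against 101.5, 33.4 and 45.9 CPM in the other 3 from the shallowest up. H2-DMa stood at 10.3, 7.21, 8.65 and 19.4 CPM (16.6 to 22.5 in the deepest group) in the same order, so it too was highest where the holders were, while H2-DMb1 ranged from 44.7 to 56.7 CPM. Without the 5% deepest cells of each library the presenting log2 ratio was 1.70. WT holders had a median of 4579 UMIs against 3200. Whether some holders are 2 cells in a droplet was not tested.

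Interferon response genes were high in few holders; interferon gamma is a known inducer of class II. The 15 genes searched took a median of 0.0802% of UMIs in IRF8KO holders and 0.0452% in other cells, and 2 of 31 holders lay above the 95th percentile of other cells (0.335%). In WT the medians were 0.0357% and 0.0198%, with 2 of 9 above the percentile. Of the 101 IRF8KO cells with the highest interferon share, 1 was a holder. They stood at 793 presenting CPM against 185 in the rest, but 253 of their presenting UMIs were in that holder, and without holders the values were 65.6 (22 UMIs in 100 cells) and 32.1 CPM. The 67 such WT cells, with 0 holders, stood at 36.7 CPM (9 UMIs) against 41.6 in the rest, or 33.2 CPM in the rest without holders. IRF8KO cells with under 1% of UMIs in Apoe, the lipid carrier that is abundant in that library, numbered 36 with a median of 3302.5 UMIs, and 2 were holders (in WT, 3296 of 3304 cells were under 1%). They held 7.92% of Cd74 and 8.76% of H2-Aa UMIs but 1.92% of H2-DMa and 0.408% of H2-DMb1 UMIs.

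Other genes of the pathway were counted in the same way. At 10 CPM or more, their ratios ran from -1.25 (Unc93b1) to 1.68 (Cd63). Of the members at that level, H2-Oa (-0.98) alone lay inside this range, with H2-DMb1 (-1.28) just outside it. Among all genes of that level, 5.61% were at least 2-fold higher and 9.28% at least 2-fold lower. The lists are too short for their counts to be set apart from these shares. Of 12 regulators of class II transcription, all at 10 CPM or more, 0 were at least 2-fold higher and 1 at least 2-fold lower, with a median of -0.40. The RFX genes Rfx5, Rfxap and Rfxank stood at -0.38, -0.43 and -0.34. The named ones were Nfya, a subunit of NF-Y, at -1.07 (-1.19 to -0.94), and the acetyltransferases Ep300 at -0.75 and Crebbp at -0.53. Of 10 genes of antigen processing and endosomal traffic, 1 was 2-fold higher and 2 lower, with a median of -0.77: Cd63, a tetraspanin of late endosomes, at 1.68 (1.64 to 1.72), Unc93b1, the escort of endosomal Toll-like receptors, at -1.25 (-1.29 to -1.22), and Lgmn, an asparaginyl endopeptidase, at -1.12 (-1.14 to -1.10). Ctss, the protease that trims CD74, had 5408 and 2944 CPM, a ratio of -0.88, and March1, which ubiquitinates class II, -0.88. Under TMM, Nfya was at -0.81 and Lgmn at -0.87, so both left the 2-fold count.

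Of 4 co-stimulatory genes with at least 10 CPM, Cd274, the ligand of PD-1, was higher at 1.23 (0.92 to 1.55), Cd86 lower at -1.16 (-1.24 to -1.08) and at -0.91 under TMM, and Icam1 was at -0.76, with a list median of -0.23. Cd40, under that level, had 1 WT and 22 IRF8KO UMIs, 19 of them in 1 holder; it was picked after its values were seen. Of the other genes in the class II region, 5 passed 10 CPM and 0 were 2-fold higher or lower, with a median of -0.40. Psmb8, an immunoproteasome subunit, stood at -0.48, Brd2 at -0.45 and the peptide transporter gene Tap2 at -0.40. H2-Eb2 had 0 UMIs in either library.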

How the data were processed

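The authors deposited raw UMI counts per gene and barcode for each library; per the file headers the matrices are whole-number counts of software version 3.1.0. The submitters' processing notes name bcl2fastq, Cell Ranger 3.1, Scanpy and mm10; for annotation, strand use and cell calling nothing is stated in the labels. The labels' protocols also name a full-length kit, although the values have droplet form.

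Counts were summed over kept cells and scaled to CPM by library totals, 18543061 and 18980263 UMIs; a count of 0 took a floor of 3 counts over the group. Intervals are exact Poisson, conditional binomial or Clopper-Pearson intervals at 95%. Cells were thinned to 2000 UMIs without replacement. Even spreads were computed by formula from cell depth. Ratio and spread calculations were tested on simulated data. Doublets were not called. Gene positions are from GENCODE M21 (GRCm38), matched by identifier. Python 3.11.15, numpy 2.4.6, scipy 1.17.1 and edgeR 4.0.16 (TMM factors only) were used.

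Named genes were the 10 members, the 3 of each pathway list with the largest absolute ratio at 10 CPM or more, the 8 highest folds in holders among genes with 20 UMIs there, and cell type markers, of which some are not reported here; others are named as pathway list members. Members and lists were chosen with earlier results of these data known. Alternatives were other scalings, cell filters, thinning depths, cell weights, a pseudocount of 1 CPM and holder limits.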

Additional observations from a re-analysis of the deposited data

Results flagged for a closer look

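Transcripts of the members also occurred in barcodes outside the compared cells, above the limit of 3 counts. The 98 neutrophil-like IRF8KO cells held 151 UMIs of the presenting genes, 137 of them in 1 cell of 20308 UMIs whose neutrophil genes took 20.8% of UMIs and which also held 983 Apoe and 5 H2-DMa UMIs; without it, 14 were left. Whether this barcode held 2 cells was not tested. The same 98 cells held 23 UMIs of H2-DM genes.

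The 198 IRF8KO barcodes left out by the cell filter held 47 presenting UMIs, 31 of them in 1 barcode of 806 UMIs with 1 Apoe UMI, and 10 H2-DM UMIs. The 200 WT barcodes left out held 6 presenting UMIs and 60 H2-DM UMIs.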

How the results depend on the processing

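No paired analysis was possible because each group is 1 library, and no replicate could be left out. Of the ratios of single members under the alternatives, 85 stayed within the counting interval, 24 left it and 1 turned its direction: H2-Ab1, at -1.47 without holder cells. Holders were picked by the presenting genes, so that alternative lowers the counts of those genes by its rule. The H2-DM ratio was -2.24 with TMM, -2.34 when mitochondrial and ribosomal protein genes left the totals and -2.61 without holders. The presenting ratio was 2.49 with TMM, 2.39 with those totals, 2.53 with the stricter cell filter (2000 UMIs, 1000 genes, 5% mitochondrial), 1.70 without the 5% deepest cells, 1.46 with equal weight for each cell and -0.027 without holders. Leaving out the 5 barcodes found in both libraries, chosen after seeing the data, kept both within their intervals (-2.49 and 2.24).

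The share in 50 cells for H2-DM in WT was 13.1% in 1% of cells and 8.93% thinned, and in IRF8KO cells 21.9% (stricter filter). For the presenting group it was 38.6% (1% of cells) and 51.8% (thinned) in WT, and 79.6% (thinned) and 90.5% (stricter) in IRF8KO cells. The share of cells with a UMI follows depth: H2-DM had 71.4% unthinned and 32.3% at 1000 UMIs in WT and 19.4% and 6.27% in IRF8KO cells, and the presenting group 12.02% and 2.97%, and 9.29% and 3.12%. WT holders numbered 27 at 5 UMIs and 3 at 20, and IRF8KO holders 44 and 27. With TMM the 2-fold lower counts were 0 for transcription, 1 for processing and 0 for co-stimulation; the higher co-stimulation count was 3 with no minimum and 0 at 50 CPM. The single libraries and the few UMIs of H2-Aa, H2-Eb1 and Ciita in WT limit precision.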

Other observations

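In the library labelled IRF8KO, 25 genes with at least 10 CPM had 50% or more of their UMIs in 50 cells. Besides the 4 presenting genes these were 21 others, listed after their values were seen: among them the chemokines Cxcl9 and Cxcl10 (100% each), Ccl4 (83.3%), Ccl2 (81.5%), Ccl5 (57.9%) and Ccl12 (57.3%), the receptor Ccr2 (92.6%), the interferon-inducible GTPase Iigp1 (85.8%), the cell cycle genes Stmn1 (69.1%) and Cenpf (65.8%), and F13a1 (65.6%). In WT there were 5: Ttr (100%), a choroid plexus transcript, Ccl4 (92.2%), Ccl3 (72.6%), Ifitm3 (51.4%) and Lpl (50%). Ccr2 and F13a1 were thus held by few IRF8KO cells, as the presenting genes were, and 26 of the 31 holders had a Ccr2 UMI.

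Within IRF8KO cells thinned to 2000 UMIs, H2-DMb1 had a UMI in 19.6% (12.2 to 28.9) of 97 cells with H2-DMa and 8.998% (8.17 to 9.88) of 4412 without. H2-DMa had one in 7.47% (4.49 to 11.5) of 241 cells with Cd74 and 1.85% (1.47 to 2.30) of 4268 without. The WT shares given above lay close together in both cases.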
